A study of Strongylocentrotus purpuratus with 8 samples.

Results

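DNA methylation of CpG sites was compared between adult tube feet and 72 hpf embryos of the purple sea urchin, Strongylocentrotus purpuratus, by whole-genome bisulfite sequencing. The members are the 4 libraries whose titles name these groups, out of 8 in the series. There were 2 libraries of adult tube feet and 2 of embryos at 72 hours post fertilisation (hpf). The other 4 libraries are embryos at 24 and 48 hpf, and the 48 hpf libraries serve below to sort windows without using the 4 libraries compared and to give an earlier level beside some results. The design text calls the replicates biological, but the labels do not say how many animals or cultures stand behind each library. The p-values below set a change against the spread between these libraries, moderated over all windows. All samples are untreated, and no genotype, sex or age of the adults is given. Tube feet are the soft appendages with which the adult walks, holds on and senses. They hold several cell types, and the 72 hpf sample is a whole embryo. A level is therefore an average over cell types and over both chromosome copies, which cannot be told apart here.

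In bisulfite sequencing, unmethylated cytosines are read as thymine and methylated ones as cytosine. Methylation at CpG sites is copied to the new strand after replication by a maintenance methyltransferase, and it is lost where copying fails over cell divisions or where it is actively removed. Sea urchins, like many invertebrates, carry mosaic methylation, in which methylated blocks, many of them over gene bodies, alternate with unmethylated stretches. The comparison asks where along this mosaic a differentiated adult tissue differs from the late embryo.

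The 4 libraries had 92088802 to 100288115 reads at CpG sites, and a read is counted at each site it covers. On unmethylated lambda phage DNA added to each sample, 0.266% of reads were called methylated in adult replicate 1 (Wilson 95% interval 0.258% to 0.275%) and 0.233% in adult replicate 2 (0.222% to 0.243%). The values were 0.296% in 72 hpf replicate 1 (0.290% to 0.302%) and 0.235% in 72 hpf replicate 2 (0.221% to 0.250%). In windows of 8 to 11 CpG sites, methylated windows had 1.12 and 0.996 times the reads per CpG of unmethylated ones in adult tube feet, and 1.18 and 1.06 times at 72 hpf. No library had a large excess of reads in either state.

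Reads were summed in windows of 500 bp, and 632146 windows had at least 20 reads in each of the 4 libraries. This is 41.5% of the windows that hold a CpG site. Tested windows held a median of 12 CpG sites and had a median of 85 and 90 reads in the adult libraries and of 81 and 96 reads in the 72 hpf libraries. The mean window level was 24.9% and 24.7% in adult tube feet, against 29.6% and 29.7% at 72 hpf. Both adult libraries lay below both embryo libraries. The difference was -4.89 points, with a replicate SD of 0.159 points. With 2 libraries a side, an exact permutation test of such a value cannot give a p below 0.333, so values of this kind are given with the spread of the replicates and no test.

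Single windows were tested with a quasi-binomial model whose dispersion was moderated over all windows with limma. Calls needed an adjusted p below 0.05 (Benjamini-Hochberg) together with a difference of at least 20 points. Adult tube feet were lower in 59933 windows, 9.48% of those tested, and higher in 8190 windows, 1.3% of those tested. Called windows made up 10.8% in all. With limma on log2 ratios of methylated to unmethylated reads, 36376 windows were lower and 4434 higher. Regardless of any test, the groups did not overlap in 28.2% of windows with the adult lower and in 10.2% with the adult higher. With 2 exchangeable libraries a side, no overlap in either direction has a chance of up to 0.333. These 2 shares alone therefore do not mark changed windows. Replicate libraries differed by 20 points or more in 2.67% of windows in adult tube feet and in 2.17% at 72 hpf. Pairs of an adult and a 72 hpf library did so in 13.6% to 13.9% of windows. Loss was thus far more frequent than gain, and exceeded the spread between replicates.

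The change depended first on the level the window had at 72 hpf. Windows below 10% at 72 hpf, 384271 in number, had a mean level of 1.24% and 1.18% in adult tube feet, against 0.783% and 0.708% at 72 hpf. Windows at 40% to 50% stood at 37.3% and 37.2% in the adult, against 43.7% and 45.9%. Windows at 90% or more stood at 77.1% and 76.4% in the adult, against 93.5% and 92.9%. The mean difference grew with the 72 hpf level, from 0.466 points in the lowest class to -7.56 points at 40% to 50% and -16.4 points in the highest. A window cannot fall by more points than its level, which limits the loss in the lower classes. The median window difference varied less, between -7.60 and -9.54 points in the classes from 20% upwards. From 20% upwards the adult libraries lay below the 72 hpf libraries in each 10-point class. The share of windows called lower changed little over this range, between 20.5% and 26.8%. The share called higher was 8.58% at 20% to 30% and 0% at 80% or more. That 0% follows from the threshold, since a window above 80% cannot rise by the 20 points a call needs. Room for such a rise also shrinks towards 80%.

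**Figure D1:**
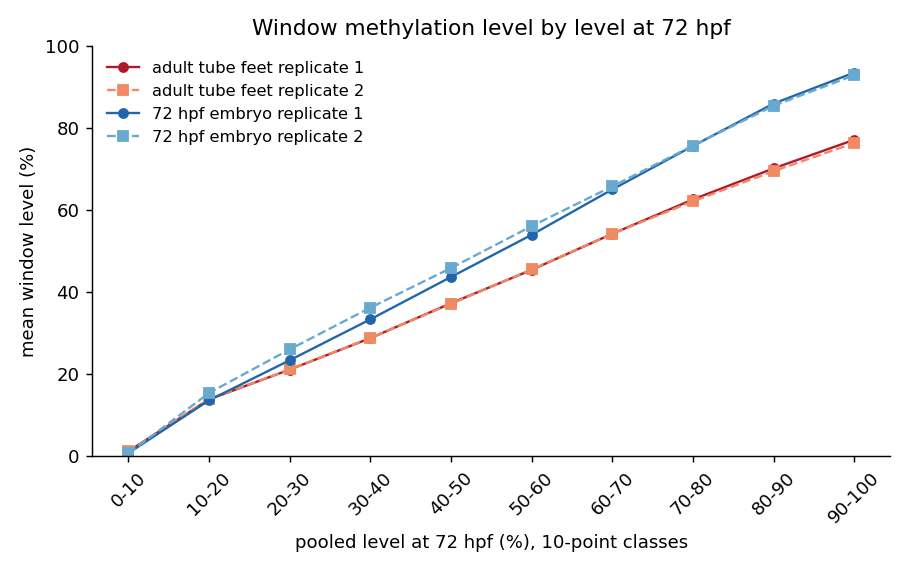
Mean methylation level (%) of 500 bp windows in each library, for 10-point classes of the pooled level at 72 hpf. The adult lines run below the 72 hpf lines from the 20% to 30% class upwards, and the gap is 16.4 points in the highest class.

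Sorting by the 72 hpf level also selects windows that were read high there by chance. When 1 of the 72 hpf replicates set the class and the other gave the change, the change at 80% or more was -15.4 points, against -16.1 points with pooled reads. With the class set by the 48 hpf libraries, it was -15.7 points (SD 0.656). At 90% or more the change was -14.97 points with split replicates and -15.2 points with 48 hpf classes. The largest losses therefore did not lie in the top class under these choices, unlike with pooled reads. At 20% or less, the mean gain was 0.424 points with pooled reads, 0.267 with split replicates and 0.295 with 48 hpf classes. The loss at windows of 80% or more thus moved by less than 1 point with the choice, whereas the mean gain at unmethylated windows was below 0.5 points under each choice.

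There were 146140 windows whose 48 hpf level was 80% or more. In adult tube feet 49.98% of them reached that level, against 92.8% at 72 hpf. Another 46.8% lay between 20% and 80% in the adult, and 3.19% at 20% or less. The adult distribution had a peak at 80% to 90%, with 29.9% and 30.4% of windows, and a long tail down to 0. Between 30% and 40%, the adult libraries held 3.58% and 3.60% of these windows, against 0.0226% and 0.0144% at 72 hpf. Levels of these windows correlated at r = 0.901 between the adult libraries, at 0.469 between the 72 hpf libraries and at 0.182 to 0.186 between the groups (Pearson's r across windows, which are not independent). These windows were chosen as high at 48 hpf, so their 72 hpf levels span a narrow range, which can lower r. Over all windows r was 0.980 between the adult libraries, 0.986 between the 72 hpf libraries and 0.913 to 0.915 between the groups. The partial adult levels were thus the same windows in both adult libraries.

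**Figure D2:**
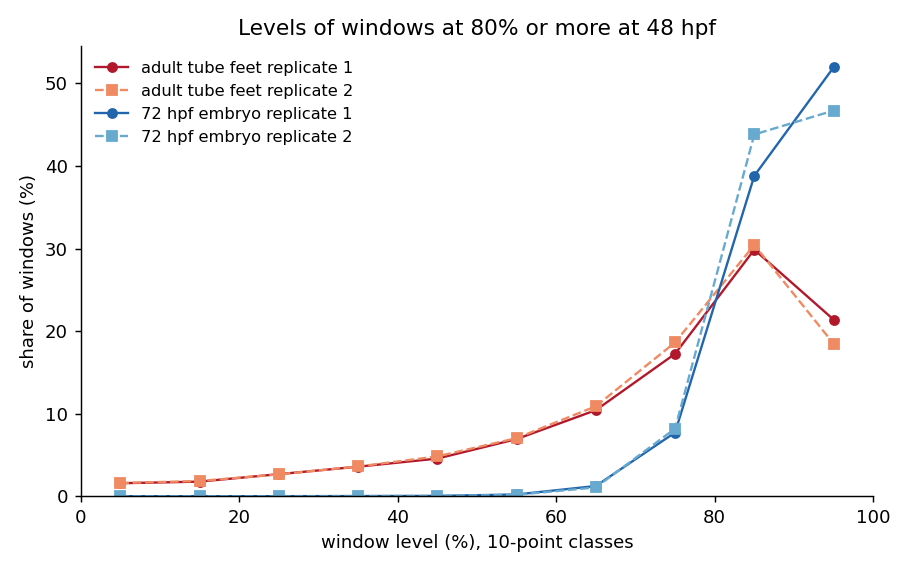
Share of windows (%) by methylation level in each library, for windows at 80% or more in the 48 hpf libraries, which are not among the 4 shown. At 30% to 40% the adult libraries hold 3.58% and 3.60% of the windows, against 0.0226% and 0.0144% at 72 hpf.

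The median level of the windows called lower was 39.4% in adult tube feet and 86.1% at 72 hpf, with a median difference of -38.4 points. Their median level at 48 hpf, which played no part in the call, was 84.2%, and the adult lay a median of 37.2 points below it. In the 36305 windows called lower that started at 80% or more and stood between 20% and 80% in the adult, single sites with 20 or more pooled reads in each group were examined. Of 112122 such sites, 80.04% were also between 20% and 80% in the adult, 8.76% were at 20% or less and 11.2% at 80% or more. In 39.5% of the 12448 windows with at least 4 such sites, every site was intermediate in the adult. The median SD between sites of a window was 14.5 points in adult tube feet and 6.06 points at 72 hpf, and counting error alone gives 8.27 points in the adult. Most of the sites examined in these windows were therefore partial in the adult, with more spread between sites than counting gives. Sites with fewer pooled reads were left out.

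The median level of the windows called higher was 57.5% in adult tube feet and 14.5% at 72 hpf. Of the 8190 windows, 4739 had been at 20% or less at 72 hpf and 312 of these reached 80% or more. Another 1771 passed from between 20% and 80% to at least 80%. Unmethylated windows mostly stayed so, since 97.9% of the 399515 windows at 20% or less at 72 hpf were at 20% or less in the adult. The median ratio of adult to 72 hpf reads was 0.949 in windows called higher, 0.920 in windows called lower and 0.963 in all windows.

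The number of CpG sites in a window separated large from small losses. Among windows at 80% or more at 72 hpf, those with 4 to 7 CpG sites stood at 69.2% ± 0.354 in adult tube feet and 88.7% ± 0.357 at 72 hpf (SD, n = 2 each), a difference of -19.5 points. Windows with 12 to 19 sites stood at 76.7% ± 0.695 in the adult and 89.6% ± 0.461 at 72 hpf (SD, n = 2 each), a difference of -13.0 points. Windows with 30 or more sites stood at 82.3% ± 0.375 in the adult and 90.5% ± 0.387 at 72 hpf (SD, n = 2 each), a difference of -8.29 points. Most of the difference between these classes lay in the adult level. The 72 hpf level differed little between them, but the choice of windows at 80% or more at 72 hpf itself keeps that level in a narrow range. The change of the 4 to 7 class minus that of the densest class was -11.2 points, with a replicate SD of 0.0363 points.

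The share of these methylated windows called lower was 33.8% at 1 to 3 CpG sites, 32.8% at 4 to 7, 27.6% at 8 to 11, 21.3% at 12 to 19, 14.03% at 20 to 29 and 10.9% at 30 or more. Denser windows have more reads, which makes a call easier, not harder. With each window and library thinned to 20 reads, the shares were 29.7%, 25.9%, 20.9%, 15.4%, 10.1% and 8.35% in the same order. At that depth 20.5% of all windows at 80% or more at 72 hpf were called lower, and 7.3% of all windows tested. The order also held within 20 kb stretches. Relative to the mean of their own stretch, the change was lower by -2.19 points in windows of 4 to 7 sites and higher by 7.32 points in windows of 30 or more.

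**Figure D3:**
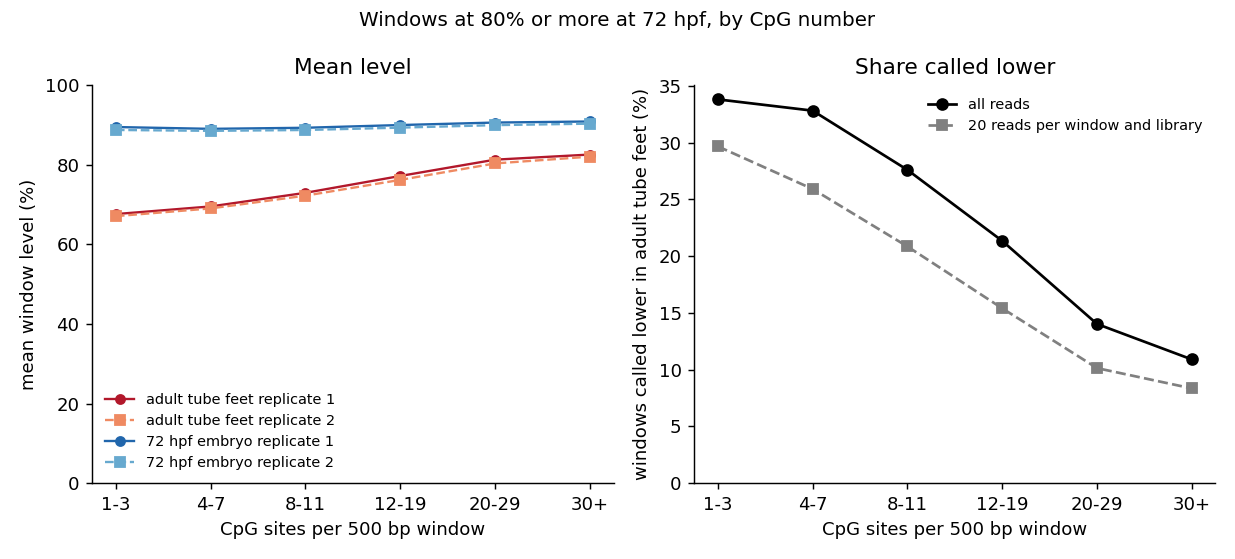
Windows at 80% or more at 72 hpf, by the number of CpG sites per 500 bp. Left, mean level (%) in each library, where the adult lines rise to the right and the 72 hpf lines stay near 90%. Right, share of windows called lower in adult tube feet, which is 33.8% at 1 to 3 sites and 10.9% at 30 or more with all reads.

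An adult level of 20% or less was rare among methylated windows at each CpG number. Among windows at 80% or more at 48 hpf, 4.15% of those with 4 to 7 sites and 1.40% of those with 20 to 29 sites were at 20% or less in the adult. At 30 or more sites the share was 2.03%, which is 35 of 1728 windows. Among windows at 20% or less at 72 hpf, the share called higher was largest at both ends of the scale. It was 2.58% at 1 to 3 sites, 0.927% at 12 to 19 and 3.31% at 30 or more, against 1.3% of all windows tested. At equal reads the values were 2.71%, 0.859% and 3.09%. The densest unmethylated windows stood at 3.92% ± 0.0603 in adult tube feet and 2.497% ± 0.338 at 72 hpf (SD, n = 2 each). At 48 hpf they stood at 2.69% in replicate 1 and 4.003% in replicate 2, so replicate 2 lay above the adult mean. These windows were chosen as low at 72 hpf, and the part of this choice in their difference was not tested.

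Methylated blocks were built from pooled 72 hpf reads as runs of windows at 50% or more. Of 83133 blocks, 12634 were complete, with an observed window under 50% at both ends, and the longest of these spanned 75 kb. Their windows hold 19.2% of the windows at 80% or more at 72 hpf, and block length is known only for them. In blocks of 10 kb or more, windows at 80% or more stood at 73.2% ± 0.481 in adult tube feet and 89.5% ± 0.475 at 72 hpf (SD, n = 2 each). In blocks of 1 to 2 kb they stood at 70.5% ± 0.354 in the adult and 88.4% ± 0.284 at 72 hpf (SD, n = 2 each). The differences were -16.2 and -17.9 points, and -21.8 points in 285 windows that formed a block of their own. Windows called lower made up 27.3% in the longest class, 25.7% at 5 to 9.5 kb, 30.01% at 2.5 to 4.5 kb, 28.7% at 1 to 2 kb and 34.7% at 0.5 kb, against 26.8% of all windows at 80% or more.

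The gap of 1.70 points between the longest class and the 1 to 2 kb class was not stable. It was -0.294 points with blocks and levels taken from the 48 hpf libraries, and 7.57 points with blocks cut at 80%. Loss was therefore present in blocks of every length, and no order by length held under each definition.

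Distance to a block edge mattered little inside blocks. In complete blocks of 5 kb or more, windows next to the edge stood at 71.2% ± 0.533 in adult tube feet and 88.6% ± 0.373 at 72 hpf (SD, n = 2 each). Windows 2 kb or more inside stood at 73.5% ± 0.537 in the adult and 89.4% ± 0.462 at 72 hpf (SD, n = 2 each). The difference was -17.4 points next to the edge, -15.2 points between 1000 and 1500 bp from it and -15.96 points at 2 kb or more. The share called lower was 27.9% next to the edge and 26.9% at 2 kb or more. The difference between these positions was -1.40 points in the values given and lay between -2.36 and -0.907 points under the alternatives tried. It is small beside the loss that the interior shows.

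The position mattered more outside blocks. Windows at 20% or less at 72 hpf and next to a block edge stood at 7.59% and 7.64% in adult tube feet, against 4.54% and 5.04% at 72 hpf. Those 2 kb or more from any block stood at 1.09% and 1.04% in the adult, against 0.922% and 0.856%. Next to an edge 6.64% of the windows were called higher, and at 2 kb or more 0.611% were, against 1.3% of all windows tested. Windows next to an edge were already more methylated at 72 hpf, and stood at 5.67% and 6.92% at 48 hpf. The difference in change between the near and the far windows was 2.65 points, but 1.64 points with windows and blocks chosen at 48 hpf. Among windows at 5% or less at 72 hpf, 3.55% were called higher next to an edge and 0.409% at 2 kb or more. Gain was therefore more frequent beside blocks in the share of windows, but 1639 of the 4739 called windows that started at 20% or less lay 2 kb or more from any block, and 522 lay next to an edge.

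**Figure D4:**
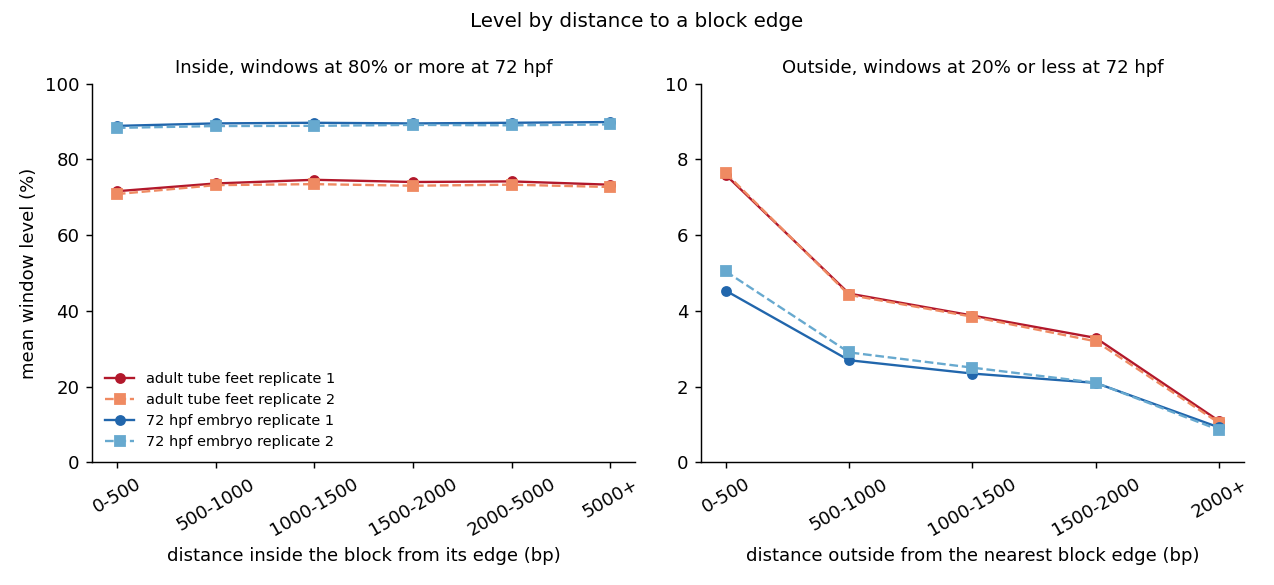
Mean window level (%) in each library by distance to a methylated block edge. Inside blocks of 5 kb or more (left), the adult lines lie 15.2 to 17.4 points below the 72 hpf lines at all distances. Outside blocks (right, axis to 10%), adult levels are 7.59% and 7.64% next to the edge, against 4.54% and 5.04% at 72 hpf, and all 4 libraries are below 2% from 2 kb.

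The loss was arranged over distances much longer than a window. For pairs of windows at 80% or more at 48 hpf, the change in one was compared with the change in the other. Pearson's r across pairs was 0.644 at 0.5 kb, 0.450 at 5 kb, 0.323 at 20 kb and 0.196 at 50 kb, from 63554 to 18459 pairs. Neighbouring windows share reads and libraries. With the change of each window taken from a different pair of libraries, r was 0.595 at 0.5 kb and 0.300 at 20 kb. The difference between the adult replicates gave an r between -0.0104 and 0.0299 over these distances, and that between the 72 hpf replicates gave -0.00288 to 0.0174. Neighbouring windows thus shared the change between groups, while their differences between replicates were nearly unrelated.

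**Figure D5:**
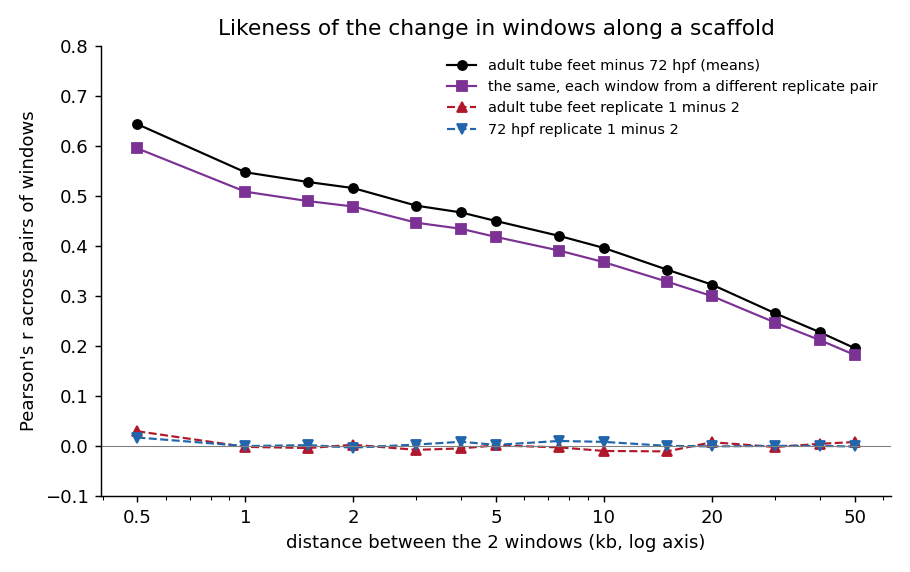
Pearson's r of the change in methylation between 2 windows of the same scaffold, by the distance between them (kb, log axis), for windows at 80% or more at 48 hpf. The change from 72 hpf to adult tube feet gives 0.644 at 0.5 kb and 0.323 at 20 kb, and the differences between replicates of a group stay near 0.

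Scaffolds were divided into stretches of 20 kb, and 5497 of these had 10 or more windows at 80% or more at 48 hpf. The mean level of a stretch ranged from 1.76% to 93.9% in adult tube feet and from 81.0% to 95.4% at 72 hpf. The median change was -11.5 points, and the middle 90% of stretches lay between -45.3 and -1.04 points. The SD of the change was 14.5 points, against 2.52 points for the difference between the adult replicates and 1.77 points for that between the 72 hpf replicates. The groups did not overlap, with the adult lower, in 92.9% of stretches. A loss of 30 points or more was seen in 19.3% of stretches, and a loss of under 5 points or a gain in 24.96%. Differences between stretches held 46.4% of the variance of the change over windows.

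The 2 stretches with the largest loss and the 2 with the smallest change, among those with 20 or more such windows, were chosen after their values were seen. Positions 340001 to 360000 of Scaffold356 (build Spur3.1) stood at 1.64% and 1.88% in adult tube feet, against 89.2% and 88.1% at 72 hpf, and all 25 windows were called lower. Positions 240001 to 260000 of Scaffold823 stood at 26.6% and 31.6% in the adult, against 91.0% and 88.6%, with 19 of 21 windows called lower. By contrast, positions 140001 to 160000 of Scaffold207 stood at 86.7% and 85.5% in the adult, against 86.1% and 86.2%. Positions 60001 to 80000 of Scaffold855 stood at 88.2% and 87.4% in the adult, against 88.3% and 87.5%. Neither of these last stretches held a called window among the 28 and 27 examined. Equally methylated stretches of the embryo thus stood at levels from 1.76% to 87.8% in the adult.

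Whole blocks were seldom called throughout. Of 1801 complete blocks of 5 kb or more with at least 5 tested windows at 80% or more, 35.0% had no window called lower, 60.5% had some and 4.498% had all. The median block changed by -10.4 points. Runs of adjacent called windows were short, since 74.8% of the 42464 runs of lower windows and 83.7% of the 6450 runs of higher windows were a single window. Windows that were not tested also end a run. Runs of 2 or more held 47.0% of the lower windows and 34.1% of the higher ones.

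The longest run of lower windows had 22 windows over 11 kb. The runs described next are the longest without windows in which a library had more than 5 times its median reads. On Scaffold2268, 15 adjacent windows between positions 50001 and 57500, with 331 CpG sites, stood at 6.74% and 9.57% in adult tube feet, against 82.7% and 86.7% at 72 hpf. The loss was deep over most of these 7.5 kb, although the highest adult window was at 51.8%. On Scaffold563, 14 windows between 355501 and 362500, with 154 CpG sites, stood at 37.2% and 35.9% in the adult, against 87.6% and 90.5%. No window there was below 17.2% in an adult library, so the loss was partial throughout. On Scaffold3, 12 windows between 1847501 and 1853500 stood at 32.5% and 26.3% in the adult, against 0.269% and 0.422%. This is a partial gain over 6 kb of DNA that was unmethylated at 72 hpf. On Scaffold92, 10 windows between 496001 and 501000 stood at 90.8% and 88.8% in the adult, against 45.9% and 42.5%, so an intermediate level at 72 hpf was a high one in the adult. The largest adjusted p of a window in these 4 runs was 0.0385 in the window model with limma moderation.

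Single windows were then named by rule, 2 for each kind of place, from called windows with at least 50 reads in each library. Among windows of 30 or more CpG sites, the largest falls were at positions 21001 to 21500 of Scaffold22 and 744001 to 744500 of Scaffold60. The first, with 35 sites, stood at 0.789% and 0% in adult tube feet, from 380 and 360 reads, where the 0 allows up to 0.833%. It stood at 98.8% and 96.4% at 72 hpf, from 86 and 56 reads. The second, with 34 sites, had 0 of 183 and 0 of 132 reads methylated in the adult, which allows levels of up to 1.64% and 2.27%, against 94.2% and 98.9% at 72 hpf. The coverage of the first window was uneven between the groups, and the part of this in the result was not tested. Deep inside complete blocks, the largest fall was at positions 401001 to 401500 of Scaffold745, with 17 sites, 4500 bp from the edge of a block of 14.5 kb. It had 0 of 128 and 0 of 125 methylated reads in the adult, allowing up to 2.34% and 2.40%, against 97.2% and 96.0% at 72 hpf. At positions 416501 to 417000 of Scaffold177, a window of 6 sites had 0 of 74 and 0 of 55 methylated reads in the adult, allowing up to 4.05% and 5.45%, against 95.4% and 94.3%. The Scaffold22 window also lay next to a block edge. Among other windows in that position, the largest fall was at positions 361501 to 362000 of Scaffold356, close to the stretch of near-complete loss named above. It had 0 of 72 and 0 of 91 methylated reads in the adult, allowing up to 4.17% and 3.30%, against 96.3% and 96.9%. The next largest was at positions 662001 to 662500 of Scaffold520, at 1.23% and 1.14% in the adult, against 94.1% and 98.3%. These windows had been methylated at 48 hpf too, at 74.2% or more in each library. Limits of this kind cover counting error only, since reads carry no molecular identifiers and several calls can come from 1 read.

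The largest rises were found by the same rule. At 30 or more CpG sites, positions 54001 to 54500 of Scaffold1376, with 31 sites, stood at 94.5% and 93.1% in adult tube feet, against 1.24% and 0% at 72 hpf, where 0 of 187 reads allows up to 1.60%. Positions 845501 to 846000 of Scaffold10, with 41 sites, stood at 91.5% and 96.2% in the adult, against 0.541% and 0%, where 0 of 149 reads allows up to 2.01%. At 2 kb or more outside any block, positions 25001 to 25500 of Scaffold2575, with 29 sites, stood at 93.2% and 89.3% in the adult. At 72 hpf, 0 of 178 and 0 of 109 reads there were methylated, which allows up to 1.69% and 2.75%. The other window of this kind, at positions 52001 to 52500 of Scaffold1376, stood at 98.0% and 92.0% in the adult, against 2.24% and 3.83%. Next to a block edge, positions 876501 to 877000 of Scaffold10 stood at 94.2% and 97.0% in the adult, against 0 of 112 and 0 of 104 reads, allowing up to 2.68% and 2.88%. Positions 54501 to 55000 of Scaffold1376 stood at 97.3% and 92.5% in the adult, against 2.69% and 0.645%. Of these 6 windows, 3 lie within 3 kb on Scaffold1376 and belong to one region. The rule chose windows that were called, with groups that do not overlap, so these values are a description. All 12 stayed called with limma, with all 8 libraries and with the replicate block, with adjusted p of up to 0.00646 (limma on log2 ratios). In the main quasi-binomial fit the adjusted p lay between 1.61e-06 and 6.67e-06. The settings of 10 and 40 reads and 4 CpG sites could not remove these windows. Each had at least 50 reads in each library and 6 or more sites. Without each library in turn, the differences kept their direction and stayed at 88.7 points or more in size. The fit with no lower bound gave each of the 12 the same adjusted p as the main fit, so it was no separate check. What genes or repeats these windows hold was not analysed here.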

How the data were processed

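Per the file headers, the authors' CpG calls come from MethylDackel on merged, sorted and deduplicated reads, on build Spur3.1 in linear scaffolds with lambda phage DNA added. Trimmomatic and Picard are also named, per the submitters' processing notes. For the aligner, tool versions and read filters, nothing is given in the sources used here. The authors deposited, for each CpG, methylated and unmethylated read counts, which are not normalized, and a methylation percent, cut down to a whole number. Only the counts were used. The percent column matched them at each site.

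Lambda was dropped and counts were summed in 500 bp windows with at least 20 reads in each of the 4 libraries. CpG number is the number of sites listed in any of the 8 libraries. Each window had a quasi-binomial model with 1 mean per group over the 4 libraries (R 4.3.3). Dispersion was moderated with squeezeVar of limma 3.58.1, with a trend on reads and a lower bound of 1, and tested with a quasi-likelihood F test, Benjamini-Hochberg adjusted over all windows. A p of 1 was given where the mean level was below 2.5% or above 97.5%, which left 277831 fitted. The group difference used pooled reads, and class levels are means over windows. Blocks bridge 1 window with fewer than 10 pooled reads.

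Members, classes and the naming rule (2 windows for each kind of place, with groups that do not overlap, at least 50 reads and at most 5 times a library's median reads) were chosen with earlier results of these data known. At the thinned depth of 20 reads, 1 dispersion was used for all windows. Replicate numbers come from the titles, and no label says that they pair libraries. Gene annotation was not used, because the table available is of a different assembly.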

Additional observations from a re-analysis of the deposited data

How the results depend on the processing

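Windows called lower numbered 59933 and windows called higher 8190. They were 35954 and 5332 at 40 reads, where 428408 windows were tested, 36376 and 4434 with limma on log2 ratios (pseudocount 0.5), and 4928 higher windows passed at 30 points. The other alternatives, which were 10 reads, 4 CpG sites, 1000 bp windows, no lower bound, all 8 libraries in the fit, thinned reads and each library left out, kept the counts within 1.5 times. Without 1 library, lower windows ranged from 45659 to 54071 and higher windows from 6595 to 7979. The fit with no lower bound gave the same counts as the main fit, so it was no separate check. The replicate block gave 61718 lower and 8739 higher windows. The numbers share no more than a number, since the replicate differences of the groups correlated at 0.00925 across 277831 windows. No window called by limma, the replicate block, all 8 libraries or any fit without 1 library was called in the opposite direction. The 12 named windows kept their calls with limma, all 8 libraries and the replicate block. The limits of 10 and 40 reads and 4 CpG sites could not remove them. For these windows, 1000 bp windows, thinned reads and 30 points were not run. Of the named runs, Scaffold3 kept 9 to 12 of 12 windows, Scaffold92 8 to 10 of 10, Scaffold563 13 to 14 of 14 and Scaffold2268 13 to 15 of 15.

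The mean difference over all windows was -4.04 points at 40 reads, -4.68 at 4 CpG sites and -5.09 without windows above 5 times the median reads, a setting chosen after seeing the data. At 80% or more it was -14.7 points at 40 reads and -15.4 with split replicates. At 20% or less it was 0.328 at 40 reads, 0.295 with 48 hpf classes and 0.267 with split replicates. The excess loss at 4 to 7 over 30 or more CpG sites was -10.8 points with equal weight per site and -11.5 with 48 hpf classes. It was -13.4 at 2 kb or more inside complete blocks, where the densest class held 110 windows. Without windows above 5 times the median reads it was -9.99.

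The block length difference reversed to -0.294 points with 48 hpf classes and was 1.18 at 40 reads, 7.57 with blocks cut at 80%, 6.83 without bridging and 1.41 at 8 to 11 CpG sites. The cause was not tested. The inside edge difference was -0.907 at 40 reads, -1.20 with equal weight per site, -0.943 with 48 hpf classes, -2.21 with blocks cut at 80%, -2.36 without bridging, -1.58 at 8 to 11 CpG sites and -1.30 without windows above 5 times the median reads. The outside edge difference of 2.65 was 1.92 at 40 reads, 2.09 with equal weight per site, 1.64 with 48 hpf classes and 1.96 in windows starting at 5% or less, also chosen after seeing the data. Windows with fewer than 20 reads in a library, 58.5% of those with a CpG site, were not tested.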
